A study of Mus musculus with 24 samples.

Results

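The blood-brain barrier and endothelial genes comprised 10 genes, chosen as a fixed list of gene symbols and found in the count table of hippocampal CA1 by the Ensembl identifiers of these symbols. All 10 were present among 18647 genes in the table and all 10 were among the 18153 that passed the filter on low counts. The members were the tight junction genes Cldn5, Ocln and Tjp1, the transporter genes Slc2a1, Abcb1a and Mfsd2a, the adhesion gene Pecam1, the growth factor receptor gene Flt1, the haemostasis gene Vwf and the diaphragm gene Plvap. RNA was sequenced from CA1 of adult C57Bl/6N mice, at least 60 days old and at least 20 g in weight, in 24 libraries of 3 per group. All mice received 1 mg/kg scopolamine methyl nitrate, which keeps the peripheral effects of pilocarpine low. Status epilepticus (SE) is a seizure that does not end by itself. Mice of the SE groups received 335 mg/kg pilocarpine hydrochloride 20 min later, and only those that developed SE were used, at 6, 12, 24, 36 or 72 h. Non-SE control (Ctr) mice, taken at 12, 36 and 72 h, received saline instead, and diazepam (4 mg/kg), which stops seizures, was given to all groups, 40 min after the onset of SE in the SE groups. The tissue was whole CA1 dissected under a microscope from 400 μm slices, so that vessels were sequenced together with neurons and glia. The labels do not say whether each library came from a separate animal, and p-values therefore measure the spread between these libraries.

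The blood-brain barrier is formed by the endothelial cells of brain capillaries, which are sealed by tight junctions, carry nutrients by dedicated transporters, pump drugs and toxins back into the blood, and form few vesicles. These traits are maintained by Wnt ligands from glia and neurons, by pericytes and by the end-feet of astrocytes. Endothelial cells that respond to injury or growth factors are known to raise adhesion molecules and haemostatic factors, and leakage of the barrier is a known feature of the time after SE in rodents and in human epilepsy.

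The promoters of Slc2a1, Flt1, Vwf and Abcb1a are given because the levels of these 4 members followed different courses after SE, which was known when they were chosen. Each sequence is the 250 bases directly before the start of the canonical transcript in the mouse genome GRCm39, read 5′ to 3′ on the strand of the gene. Capitals mark matches, on either strand, to 6 short motifs, namely the GC box GGGCGG, the ETS-type motif AGGAAG, the AP-1 motif TGANTCA, the hypoxia element core ACGTG, an NF-kB-type motif and the TATA box TATAAA. No match overlapped another in these 4 windows. Slc2a1 lies at chr4:118965658-118965907 on the plus strand, Flt1 at chr5:147662822-147663071 on the minus strand, Vwf at chr6:125529661-125529910 on the plus strand and Abcb1a at chr5:8709772-8710021 on the plus strand.
Slc2a1: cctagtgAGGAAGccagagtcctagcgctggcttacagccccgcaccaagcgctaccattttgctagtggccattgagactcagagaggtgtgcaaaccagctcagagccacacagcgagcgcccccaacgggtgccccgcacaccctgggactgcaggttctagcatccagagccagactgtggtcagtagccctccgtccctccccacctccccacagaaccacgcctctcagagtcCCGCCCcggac
Flt1: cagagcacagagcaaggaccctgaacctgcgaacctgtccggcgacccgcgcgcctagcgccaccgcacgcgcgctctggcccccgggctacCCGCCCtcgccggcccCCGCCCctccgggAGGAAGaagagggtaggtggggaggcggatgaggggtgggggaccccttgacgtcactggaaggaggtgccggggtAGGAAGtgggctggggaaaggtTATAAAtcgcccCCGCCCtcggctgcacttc
Vwf: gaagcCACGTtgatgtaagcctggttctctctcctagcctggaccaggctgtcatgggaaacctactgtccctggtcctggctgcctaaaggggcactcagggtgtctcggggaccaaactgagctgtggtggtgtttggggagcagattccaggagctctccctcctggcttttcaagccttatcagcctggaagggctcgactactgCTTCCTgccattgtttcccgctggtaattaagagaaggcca
Abcb1a: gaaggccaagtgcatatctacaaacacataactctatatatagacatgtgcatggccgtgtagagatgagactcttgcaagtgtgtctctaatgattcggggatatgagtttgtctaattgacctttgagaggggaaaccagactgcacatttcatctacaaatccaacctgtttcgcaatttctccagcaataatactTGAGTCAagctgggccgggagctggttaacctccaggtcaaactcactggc

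The Slc2a1 window held an ETS-type motif and a GC box, and the Flt1 window held 3 GC boxes, 2 ETS-type motifs and a TATA box. Vwf held an ETS-type motif and a hypoxia element core, and Abcb1a held an AP-1 motif and none of the other 5. Of 18057 promoters of the same length, 43.2% held a GC box, 28.8% an ETS-type motif, 5.11% an AP-1 motif, 19.1% a hypoxia element core, 0.404% an NF-kB-type motif and 8.51% a TATA box. Over the 10 members, GC boxes were found in 6, ETS-type motifs in 3, hypoxia element cores in 3, the AP-1 motif in 1, the TATA box in 1 and the NF-kB-type motif in 0. The GC content of the windows was 44.4% in Abcb1a, 56.0% in Vwf, 63.2% in Slc2a1 and 70.4% in Flt1. A match of letters describes the window and is not a binding site.

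The smallest library, Ctr 72 h replicate 3, held 2663936 counts and the largest 30133731, and the median library held 13521590. The lowest count of a member in any library was 21, for Plvap. Neuronal markers were abundant in every library, and the summed level of 10 CA1 pyramidal and neuron markers was 9382 to 15979 CPM over the controls, 8380 to 10317 CPM at SE 6 h and 5564 to 8241 CPM from SE 12 to 72 h. CPM are read counts scaled to the size of each library with the TMM method. Of these markers 2, 6 and 5 were called lower at 12, 36 and 72 h, where 11.4%, 8.91% and 4.21% of all genes tested were. Their part in the levels of the members was not tested. A set of 7 libraries stood apart by sensory ganglion genes such as Scn11a and Avil, whose summed level over 11 tested genes was 874 to 3863 CPM against 295 to 577 CPM in the other 17. They were SE 6 h replicate 3, SE 12 h replicates 1 and 2, SE 36 h replicate 3, SE 72 h replicates 1 and 2 and, with the highest value, Ctr 72 h replicate 2. Results are also given without these libraries where that ends or adds a call against controls. This omission leaves SE 12 h and SE 72 h with replicate 3 alone. The spread of that library is then assumed to be that of the other groups. Values without the 7 libraries at these times therefore describe 1 SE library and are no check of a call. The labels number the samples in 3 separate ranges whose meaning is not given. At 72 h no range held both SE and Ctr libraries, so that range and SE cannot be told apart there. The 3 SE 24 h libraries all lay in a range without any control, and range and SE cannot be told apart at 24 h either. At 12 h 1 SE and 1 Ctr library shared a range, and at 36 h 2 SE libraries shared a range with the 3 Ctr libraries.

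In the 9 control libraries, the levels of the members per kb of exon spanned more than an order of magnitude. Slc2a1, the glucose carrier, was highest at 27.4 CPM per kb, followed by Cldn5 at 20.6, Mfsd2a at 15.8 and Tjp1 at 14.2 CPM per kb. Abcb1a (6.29 CPM per kb) and Flt1 (6.12 CPM per kb) were close to each other, and Pecam1 (2.37), Plvap (1.77), Vwf (1.60) and Ocln (1.09 CPM per kb) were lowest. Part of the exons of Plvap overlaps the gene Gtpbp3 on the opposite strand and counting ignored strand, so that the reads of both genes cannot be told apart there. Shorter overlaps of Mfsd2a, Slc2a1, Abcb1a and Ocln with non-coding or uncharacterised genes on the opposite strand carry the same limit.

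The question of the comparisons was which of these genes change in CA1 after SE, and when. A gene was called higher or lower where edgeR's quasi-likelihood test gave a Benjamini-Hochberg adjusted p of at most 0.05 over all genes tested and the log2 fold change (log2FC) was at least 0.66 in size. At 6 h, 3 members were called higher and 1 lower against the 9 control libraries, where 22% of all genes tested were called, 15.8% higher and 6.21% lower. At 12 h, 3 were higher and 2 lower against Ctr 12 h, with 25.2% of all genes called, 13.9% higher and 11.4% lower. At 24 h, 5 were higher and 2 lower against the control libraries, with 24.1% of all genes called, 14.9% higher and 9.21% lower. At 36 h, 2 were higher and 1 lower (21.6%, of which 12.7% higher and 8.91% lower), and at 72 h, 3 were higher and 0 lower (19.4%, of which 15.2% higher and 4.21% lower). The shares of 3 to 5 in 10, and of 7 in 10 at 24 h, lay above these backgrounds. Whether a list of 10 genes differs from them was not tested. In the order of these times the median log2FC of the members was 0.07, 0.31, 0.29, 0.12 and 0.55, and that of all genes 0.06, 0.01, 0.04, 0.00 and 0.10. The comparisons at 6 and 24 h share the control libraries of the other times, because no control was taken at these times. Groups that do not overlap were common. At 12, 36 and 72 h, 24.5%, 25.8% and 19.4% of all genes had every SE library above every matched control. A further 23.2%, 26.2% and 13.4% had every SE library below. Against the 9 controls, 12.9% lay above and 9.27% below at 6 h, and 13.6% and 10% at 24 h. In bulk tissue, fewer cells of a type and less RNA per cell cannot be told apart, and this holds for every level given here.

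**Figure D1:**
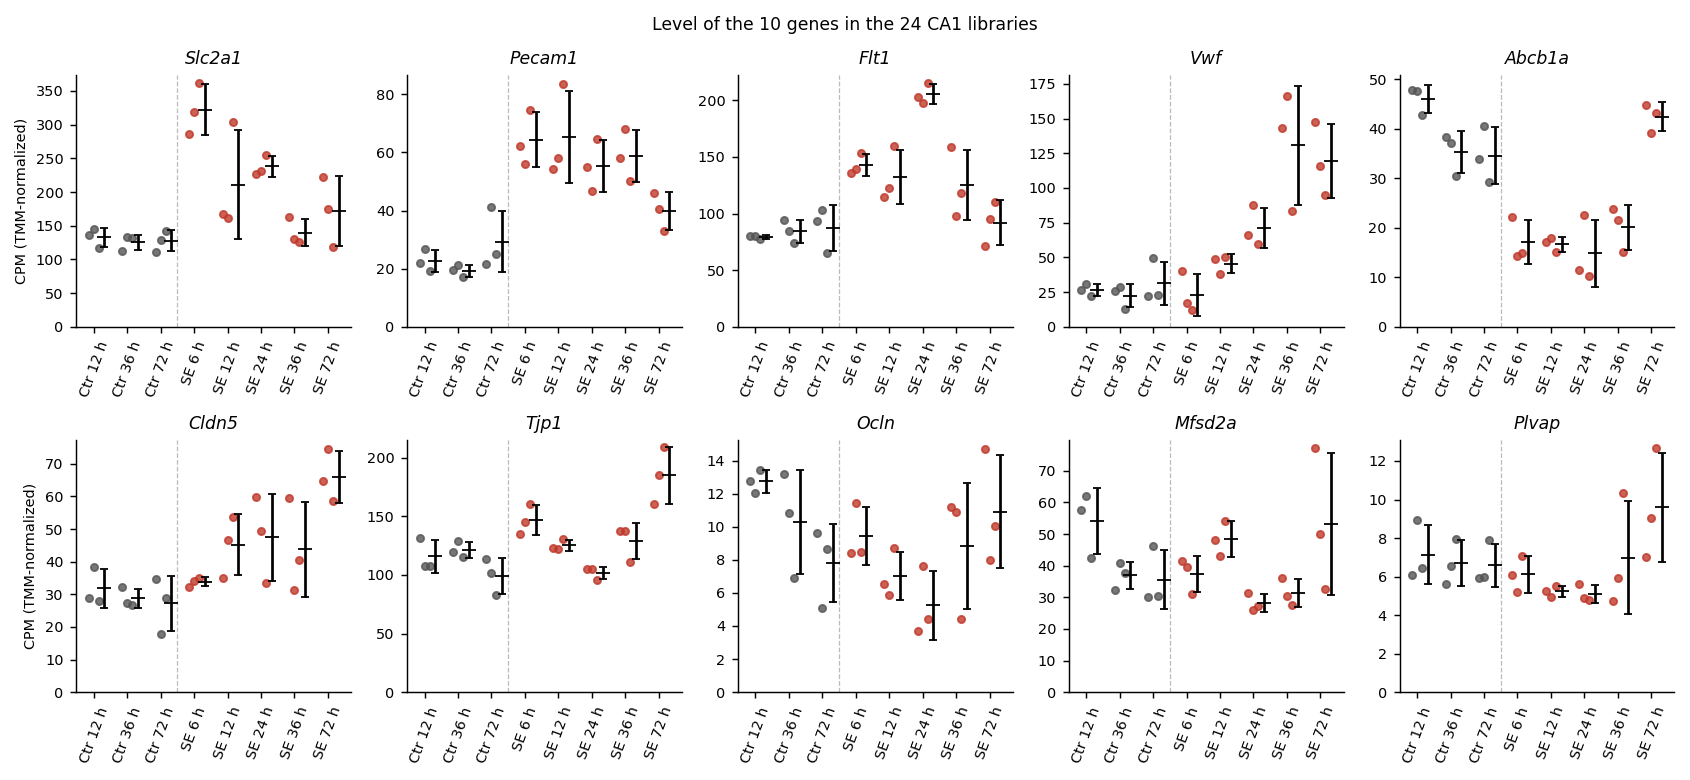
Level of each member in the 24 CA1 libraries, in TMM-normalized CPM on a linear axis that starts at 0. Points are libraries, grey for Ctr and red for SE, and bars give the mean ± SD of 3 libraries; Slc2a1 is highest at SE 6 h (322 CPM), Flt1 at SE 24 h (205 CPM) and Vwf at SE 36 h (131 CPM), while Abcb1a is lowest at SE 24 h (14.8 CPM).

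The transporter gene Slc2a1 (ENSMUSG00000028645.13, chr4:118965908-118996365 on the plus strand) encodes GLUT1, the main glucose carrier of the barrier endothelium, which astrocytes also express. It rose early. At SE 6 h the libraries held 286, 319 and 362 CPM, against 111 to 145 CPM over the 9 controls (median 132 CPM). All 3 lay above every control, as for 12.9% of all genes at 6 h. The mean was 322 ± 38.1 CPM (SD, n = 3), a log2FC of 1.33 ± 0.17 (s.e.; adjusted p = 4.3e-06, edgeR's quasi-likelihood test). At SE 12 h the libraries held 168, 161 and 305 CPM against 136, 145 and 117 CPM in Ctr 12 h. The groups did not overlap, as for 24.5% of all genes in this direction, but 1 library stood well above the other 2. The call (log2FC 0.67 ± 0.22, adjusted p = 0.020) was lost without SE 12 h replicate 3 (log2FC 0.31), Ctr 12 h replicate 3 (0.58) or Ctr 72 h replicate 2 (0.64). The call was also lost with limma-voom (log2FC 0.61), with a fit of the compared groups only (0.64) and with the replicate number as a block (0.65). Without the 7 libraries the log2FC was 1.19, from SE 12 h replicate 3 alone, the highest of the 3. At SE 24 h the libraries agreed closely, at 227, 232 and 255 CPM, all above the controls (log2FC 0.89 ± 0.17, adjusted p = 0.00030). Among all genes 13.6% lay above every control at 24 h. By SE 36 h, with 163, 131 and 126 CPM against 112, 133 and 132 CPM in Ctr 36 h, the groups overlapped and the log2FC was 0.15 (adjusted p = 0.63). At SE 72 h the libraries spread from 119 to 223 CPM and the log2FC was 0.44 (adjusted p = 0.15). The level at 36 h was lower than at 6 h by a log2FC of -1.21 ± 0.22 (adjusted p = 0.00058), past the threshold of 1 used between SE time points. In this comparison 10.1% of all genes passed, 4.29% higher and 5.8% lower.

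Abcb1a (ENSMUSG00000040584.10, chr5:8710022-8798575 on the plus strand) encodes P-glycoprotein, the efflux pump that returns many drugs, antiseizure drugs among them, from the endothelium to the blood. It was the member that fell most. Ctr 12 h held 47.9, 47.6 and 42.8 CPM and SE 12 h held 17.1, 17.9 and 15.1 CPM. These ranges lay far apart, with a log2FC of -1.46 ± 0.24 by edgeR's quasi-likelihood test (adjusted p = 7.9e-05). Of all genes, 23.2% lay below every Ctr 12 h library at SE 12 h. At SE 6 h (22.3, 14.3 and 14.9 CPM) and SE 24 h (11.6, 22.6 and 10.4 CPM) all libraries lay below the lowest control of 29.2 CPM. The log2FC was -1.16 ± 0.20 at 6 h (adjusted p = 0.00018) and -1.35 ± 0.21 at 24 h (adjusted p = 3.1e-05). Among all genes, 9.27% at 6 h and 10.0% at 24 h lay below every control in the same way. At SE 36 h, with 23.9, 21.5 and 15.04 CPM against 38.4, 37.1 and 30.5 CPM in Ctr 36 h, Abcb1a was still lower (log2FC -0.81 ± 0.23, adjusted p = 0.012). That call was lost without SE 36 h replicate 3 (log2FC -0.64, adjusted p = 0.064), without the 7 libraries (-0.64), when libraries were scaled by their totals alone (-0.69) and with all libraries thinned to the smallest (-0.83, adjusted p = 0.31). At SE 72 h the libraries held 44.9, 39.2 and 43.2 CPM against 34.0, 40.6 and 29.2 CPM in Ctr 72 h, and the difference did not pass the test (log2FC 0.30, adjusted p = 0.37). The level at 72 h was higher than at each earlier time after SE, by a log2FC of 1.31, 1.34, 1.5 and 1.07 over 6, 12, 24 and 36 h, with adjusted p between 0.00015 and 0.0065. In these 4 comparisons 14.1%, 15.2%, 10.9% and 4.13% of all genes passed, of which 8.02%, 9.49%, 7.97% and 3.08% were higher and 6.1%, 5.72%, 2.91% and 1.05% lower at 72 h. The last of them was lost without SE 36 h replicate 3 (log2FC 0.90) and with thinned libraries (1.25, adjusted p = 0.23).

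Abcb1b, a near copy of Abcb1a that also encodes a P-glycoprotein, went another way. Its mean was 4.01 ± 4.52 CPM in Ctr 72 h and 9.62 ± 1.21 CPM in SE 72 h (log2FC 2.16, adjusted p = 0.00033), and it was also called higher at 6, 24 and 36 h (log2FC 1.5, 1.52 and 1.66). The SD in Ctr 72 h exceeded the mean, so that these controls differed widely. The log2FC at 72 h is not the ratio of these means. It comes from the fit with the RUVr factor of unwanted variation, which was largest in Ctr 72 h replicate 2 (0.797). Reads that fit both genes may have been split or dropped in counting, and both values carry that limit.

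Mfsd2a (ENSMUSG00000028655.13, chr4:122840643-122855244 on the minus strand) encodes the carrier of omega-3 lipids that also keeps vesicle transport across the endothelium low. It was called neither higher nor lower at any time against controls. Ctr 12 h held 57.6, 62.1 and 42.3 CPM and SE 12 h held 48.3, 43.0 and 54.2 CPM, which overlap (log2FC -0.16, adjusted p = 0.60). The lowest mean was 28.2 ± 2.81 CPM at SE 24 h, where the log2FC of -0.55 had an adjusted p of 0.023 but missed the threshold of 0.66, and which was called against the nearest control groups only (-0.67). At SE 72 h the libraries held 77.2, 49.98 and 32.7 CPM against 30.0, 46.4 and 30.4 CPM in Ctr 72 h, a wide spread with overlap. The log2FC there was 0.61 (adjusted p = 0.049), and it passed the threshold without Ctr 72 h replicate 2 (0.81) or SE 72 h replicate 3 (0.87). Without the 7 libraries it was 0.12, from SE 72 h replicate 3 alone, the lowest of the 3.

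Flt1 (ENSMUSG00000029648.15, chr5:147498414-147662826 on the minus strand) encodes VEGF receptor 1, which binds VEGF-A and limits its signal through the receptor Kdr. It rose from 6 h and was highest at 24 h. SE 6 h held 135, 139 and 154 CPM and SE 24 h 203, 198 and 215 CPM, against 64.9 to 104 CPM over the 9 controls (median 80.2 CPM). Neither group overlapped the controls, as for 12.9% of all genes at 6 h and 13.6% at 24 h in this direction. The log2FC was 0.77 ± 0.14 at 6 h (adjusted p = 0.00027, edgeR's quasi-likelihood test) and 1.30 ± 0.14 at 24 h (adjusted p = 3.6e-07). At SE 12 h the libraries held 114, 122 and 159 CPM against 80.2, 79.8 and 77.2 CPM in Ctr 12 h (log2FC 0.74 ± 0.18, adjusted p = 0.0032). This call was lost without SE 12 h replicate 3 (log2FC 0.59) and with the label range as a factor (0.62). At SE 36 h the libraries held 159, 98.1 and 118 CPM, all above the 94.4, 84.9 and 73.6 CPM of Ctr 36 h, as for 25.8% of all genes. The log2FC of 0.57 (adjusted p = 0.022) missed the threshold, which it passed without SE 36 h replicate 2 (0.71) and when libraries were scaled by their totals alone (0.69). At SE 72 h the groups overlapped (70.9, 95.2 and 110 CPM against 93.8, 104 and 64.9 CPM) and the log2FC was 0.08 (adjusted p = 0.80). At 72 h Flt1 was lower than at 24 h, with a log2FC of -1.15 ± 0.18 (adjusted p = 0.00015), which became -0.997 without SE 72 h replicate 1, short of the threshold of 1.

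Pecam1 (ENSMUSG00000020717.21, chr11:106543689-106641454 on the minus strand) encodes CD31, the adhesion protein at endothelial cell contacts, which platelets and leukocytes carry too. It was 2.40- to 3.04-fold higher from 6 to 36 h. The libraries held 62.2, 56.1 and 74.7 CPM at SE 6 h, 54.1, 58.1 and 83.4 CPM at SE 12 h, 55.0, 46.6 and 64.5 CPM at SE 24 h and 58.0, 67.9 and 49.97 CPM at SE 36 h. The controls held 17.01 to 41.1 CPM (median 21.7 CPM), and their highest value was Ctr 72 h replicate 2, 1 of the 7 libraries. None of these 12 SE libraries overlapped the controls. Of all genes, 12.9% at 6 h and 13.6% at 24 h had every SE library above every control. Above every matched control lay 24.5% at 12 h and 25.8% at 36 h. In this order of times the log2FC was 1.48 ± 0.15, 1.53 ± 0.20, 1.26 ± 0.15 and 1.61 ± 0.20, with adjusted p from 2.3e-07 to 6.5e-06. All 4 calls held in every alternative fit, and without the 7 libraries the log2FC lay between 1.34 and 1.88, the last from SE 12 h replicate 3 alone. At SE 72 h the libraries held 45.9, 40.5 and 32.8 CPM, overlapping with the 21.7, 41.1 and 25.1 CPM of Ctr 72 h (log2FC 0.50, adjusted p = 0.067). Without Ctr 72 h replicate 2 the difference at 72 h passed, with a log2FC of 0.79 (adjusted p = 0.0099).

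Vwf (ENSMUSG00000001930.19, chr6:125523737-125663642 on the plus strand) encodes von Willebrand factor, which tethers platelets to injured vessel walls and is stored in endothelial granules. It rose late and by more than any other member. At SE 6 h the libraries held 40.3, 17.3 and 12.0 CPM, within the control range of 12.98 to 49.3 CPM apart from the lowest value, and the log2FC of -0.16 (adjusted p = 0.70) became -0.83 (adjusted p = 0.035) without SE 6 h replicate 1. At SE 12 h they held 48.7, 38.0 and 50.03 CPM, all above the 26.2, 30.8 and 22.2 CPM of Ctr 12 h, as for 24.5% of all genes. The log2FC of 0.79 ± 0.35 did not pass (adjusted p = 0.086). It did pass without Ctr 72 h replicate 2 (adjusted p = 0.034), with the label range as a factor (1.32), with a fit of the compared groups only and with the replicate block. It also passed without the 7 libraries (log2FC 0.93), from SE 12 h replicate 3 alone. SE 24 h held 66.3, 87.5 and 59.9 CPM, above every control as for 13.6% of all genes (log2FC of Vwf 1.46 ± 0.27, adjusted p = 0.00023). SE 36 h held 143, 166 and 83.3 CPM against 25.9, 28.4 and 12.98 CPM in Ctr 36 h, and SE 72 h held 147, 116 and 94.7 CPM against 22.2, 49.3 and 22.9 CPM in Ctr 72 h. The groups lay well apart at both times, where 25.8% and 19.4% of all genes lay above every matched control. The log2FC was 2.56 ± 0.37 at 36 h (adjusted p = 2.5e-05) and 2.03 ± 0.37 at 72 h (adjusted p = 0.00042). These 2 calls held in every alternative fit, at a log2FC of 2.48 to 2.83 and 1.73 to 2.08. Between SE time points, Vwf was higher at 24 h, 36 h and 72 h than at 6 h (log2FC 1.62, 2.52 and 2.36, with 6.42%, 10.1% and 14.1% of all genes called, of which 2.61%, 4.29% and 8.02% higher and 3.81%, 5.8% and 6.1% lower) and higher at 36 and 72 h than at 12 h (1.54 and 1.38, with 6.16% and 15.2% called, of which 3.23% and 9.49% higher and 2.94% and 5.72% lower). The difference between 72 and 12 h was lost with the label range as a factor (log2FC 0.96), and that between 24 and 6 h with thinned libraries (1.14).

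Platelets carry both Pecam1 and Vwf, and leukocytes carry Pecam1. Of 8 platelet markers 3 were tested, and their summed level was 0.853 to 12.0 CPM over the controls and 7.39 to 21.5 CPM after SE. The highest control value came from Ctr 72 h, while Ctr 12 h and Ctr 36 h reached 5.25 and 5.18 CPM. Among the platelet markers Itga2b was called higher at all 5 times, with a log2FC of 2.80, 1.65, 2.12, 2.5 and 2.03 from 6 to 72 h, and the platelet chemokine gene Pf4, with group means of 0.243 to 1.81 CPM, was called higher at 24 and 36 h. In the order of the 5 times 15.8%, 13.9%, 14.9%, 12.7% and 15.2% of all genes were called higher. Of 10 leukocyte markers 5 were tested, with a summed level of 3.88 to 4.49 CPM in Ctr 12 h and 6.93 to 10.6 CPM in SE 12 h. At 36 h the sum was 4.19 to 5.01 CPM in Ctr and 13.2 to 29.0 CPM in SE. At 72 h it was 6.25 to 30.4 CPM (median 6.75 CPM) in Ctr and 42.2 to 51.3 CPM in SE. Of the tested leukocyte markers 1, 2 and 2 were higher at these times (0 to 2, 0 to 3 and 0 to 3 over the alternatives). Over all genes 13.9%, 12.7% and 15.2% were higher. The part of platelets and leukocytes in the levels of Pecam1 and Vwf was not tested. Red cell genes, of which all 5 were tested, summed to 49.4 to 114 CPM in Ctr 72 h and 10.5 to 41.8 CPM in SE 72 h, where 3 were lower, among them Hba-a1 (log2FC -1.86, adjusted p = 0.0045), and to 17.3 to 50.4 CPM in the other groups. Over the alternatives 0 to 4 red cell genes were lower at 72 h, where 4.21% of all genes were lower.

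Plvap (ENSMUSG00000034845.8, chr8:71948674-71964506 on the minus strand) encodes the protein of the diaphragms of fenestrated and leaky endothelium, which the mature barrier keeps low. It was called at no time against controls. The levels were 6.06, 8.92 and 6.46 CPM in Ctr 12 h and 5.27, 4.94 and 5.50 CPM in SE 12 h, without overlap (log2FC -0.45, adjusted p = 0.20). Among all genes, 23.2% lay below every control at 12 h. With the label range as a factor, the difference at 12 h was -0.80 and that at 24 h -0.87, and both passed. At SE 72 h the libraries held 7.04, 9.06 and 12.7 CPM against 5.91, 5.97 and 7.87 CPM in Ctr 72 h, which overlap (log2FC 0.57, adjusted p = 0.14). With 21 to 260 counts per library, Plvap and Ocln (23 to 347 counts) had the fewest reads of the members.

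Cldn5 (ENSMUSG00000041378.3, chr16:18595597-18597012 on the plus strand) encodes claudin-5, the main sealing protein of endothelial tight junctions in brain. It was highest at 72 h. SE 72 h held 64.8, 74.5 and 58.7 CPM against 34.8, 17.9 and 28.9 CPM in Ctr 72 h. The groups lay apart, as for 19.4% of all genes in this direction, with a log2FC of 1.31 ± 0.22 (adjusted p = 0.00017, edgeR's quasi-likelihood test). The lowest of these controls was Ctr 72 h replicate 2. The log2FC was 1.03 without it (adjusted p = 0.0073), and the call was lost without the 7 libraries, which leaves SE 72 h replicate 3 alone, the lowest of the 3 (log2FC 0.86, adjusted p = 0.061), with the label range as a factor (0.90) and with libraries thinned to the smallest (1.06, adjusted p = 0.059). At SE 24 h the libraries held 59.8, 49.4 and 33.4 CPM against 17.9 to 38.5 CPM over the controls, and the log2FC of 0.71 ± 0.17 (adjusted p = 0.0020) was called although the lowest library lay among the controls. That call was lost without SE 24 h replicate 1 (log2FC 0.52), without Ctr 72 h replicate 2 (0.61), without the 7 libraries (0.60), against the nearest control groups only (0.66 rounded, short of the threshold) and with the label range as a factor (0.59). At 12 h the log2FC was 0.50 (adjusted p = 0.068), and it passed without Ctr 12 h replicate 2 (0.69), without SE 12 h replicate 1 (0.66) and, from SE 12 h replicate 3 alone, without the 7 libraries (0.76). At 36 h it was 0.60 (adjusted p = 0.034), below the threshold, and it passed without Ctr 36 h replicate 1 (0.69), SE 36 h replicate 2 (0.79) and SE 36 h replicate 3 (0.66), each in turn, when libraries were scaled by their totals alone (0.73) and with the stricter filter (0.67), and at 6 h the log2FC was 0.22 (adjusted p = 0.32).

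Tjp1 (ENSMUSG00000030516.16, chr7:64945898-65177529 on the minus strand) encodes ZO-1, the scaffold that ties claudins and occludin to actin, and is expressed by glia and neurons as well as endothelium. It rose at 72 h. SE 72 h held 161, 185 and 209 CPM against 114, 101 and 83.2 CPM in Ctr 72 h. The groups did not overlap, as for 19.4% of all genes in this direction, and the log2FC was 0.89 ± 0.13 (adjusted p = 2.8e-05). This call held in every alternative fit, at a log2FC of 0.80 to 1.07. At SE 6 h all 3 libraries, at 135, 145 and 161 CPM, lay above the highest control of 132 CPM, as 12.9% of all genes did, and the log2FC of 0.39 (adjusted p = 0.0041) was below the threshold. At 12, 24 and 36 h the log2FC lay between -0.14 and 0.11.

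Ocln (ENSMUSG00000021638.14, chr13:100630334-100689535 on the minus strand) encodes occludin, a membrane protein of tight junctions in endothelium and epithelium. It was called lower at 12 and 24 h, from few reads. Ctr 12 h held 12.8, 12.0 and 13.4 CPM and SE 12 h held 6.51, 5.90 and 8.68 CPM, without overlap (log2FC -0.87 ± 0.32, adjusted p = 0.036). In the same way 23.2% of all genes lay below every control at 12 h. The call was lost without any 1 of Ctr 12 h replicates 1, 2 and 3 and SE 12 h replicates 1 and 2 (log2FC -0.87 to -0.76, adjusted p from 0.066 to 0.11), without the 7 libraries (log2FC -0.56, from SE 12 h replicate 3 alone), with no RUVr factor (-0.86), with the label range as a factor (-0.58) and with thinned libraries (-2.08, adjusted p = 0.18). At SE 24 h the libraries held 3.72, 7.62 and 4.41 CPM against 5.12 to 13.4 CPM over the controls (log2FC -0.90 ± 0.28, adjusted p = 0.014), and this call was lost without SE 24 h replicate 1 (-0.72) or replicate 3 (-0.78), with the label range as a factor (-0.57) and with thinned libraries (-0.73). At 6, 36 and 72 h the log2FC was -0.09, -0.25 and 0.53, with adjusted p of 0.81, 0.59 and 0.25. Ocln was higher at 72 h than at 24 h (log2FC 1.04 ± 0.32, adjusted p = 0.023), which was lost without SE 24 h replicate 1 (0.86), SE 24 h replicate 3 (0.92) and SE 72 h replicate 1 (0.75), each in turn, with limma-voom, with the label range as a factor and with thinned libraries.

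**Figure D2:**
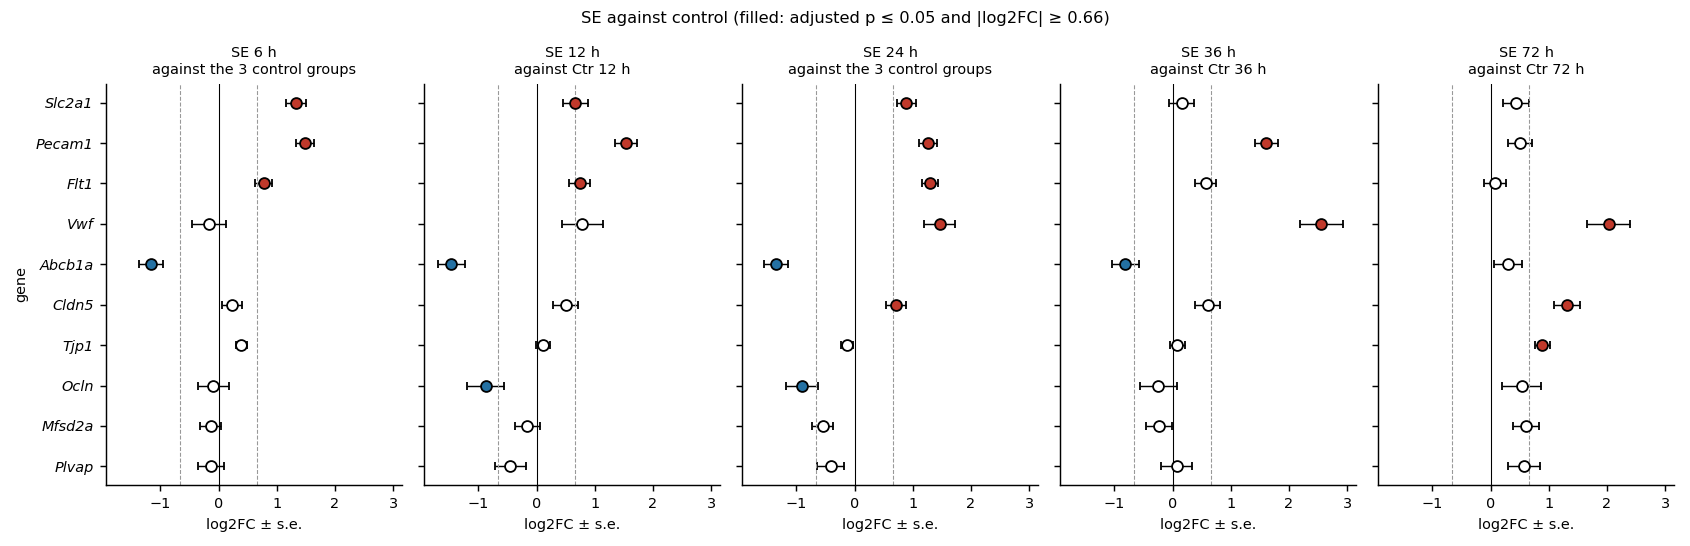
Log2FC ± s.e. of the members after SE at 5 times, against the matched control at 12, 36 and 72 h and against the 3 control groups at 6 and 24 h. Filled symbols passed the threshold, in red if higher and blue if lower, and dashed lines mark a log2FC of 0.66 in either direction; Slc2a1 and Flt1 pass from 6 to 24 h, Pecam1 to 36 h and Vwf from 24 h, and Mfsd2a and Plvap pass nowhere.

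Across time, the effect of SE differed between 12 and 72 h for 4 members, where 18.6% of all genes tested did, 12.3% towards a higher and 6.31% towards a lower log2FC at 72 h. The difference of the log2FC was 1.76 ± 0.33 for Abcb1a (adjusted p = 0.0012), 1.40 ± 0.46 for Ocln (adjusted p = 0.035), 0.77 ± 0.18 for Tjp1 (adjusted p = 0.0046) and -1.03 ± 0.28 for Pecam1 (adjusted p = 0.012, edgeR's quasi-likelihood test). Between 36 and 72 h it differed for Tjp1 (0.80 ± 0.18, adjusted p = 0.014) and Pecam1 (-1.10 ± 0.28, adjusted p = 0.027), with 4.81% of all genes called, 3.69% higher and 1.12% lower. The difference for Ocln was lost in 6 omissions of 1 library (1.1 to 1.40 without Ctr 12 h replicates 1 or 3, Ctr 72 h replicate 2, SE 12 h replicates 1 or 2, or SE 72 h replicate 1), with no RUVr factor (1.35) and with the label range as a factor (1.03). For Pecam1, the difference between 72 and 12 h was lost without Ctr 72 h replicate 2 (-0.72), and that between 72 and 36 h without Ctr 36 h replicates 1 or 3, Ctr 72 h replicate 2, SE 36 h replicate 2 or SE 72 h replicates 2 or 3 (-1.12 to -0.81). For Tjp1, the difference between 72 and 12 h was 0.66 without Ctr 72 h replicate 3, short of the threshold, and both differences were lost with the label range as a factor (0.71 and 0.72). With thinned libraries, of these differences the one for Abcb1a kept its call. The Pecam1 difference between 72 and 36 h was also lost with no RUVr factor (-1.16) and with limma-voom (-1.07). Between 12 and 36 h it differed for 0 members, with 1 member at an unadjusted p under 0.05 (Vwf, adjusted p = 0.052, and 0.023 without Ctr 72 h replicate 2 or 0.039 without SE 36 h replicate 3), 1 by DESeq2 and 0 by limma-voom, and 3.38% of all genes called (1.99% higher, 1.38% lower). Without the 7 libraries 3 members were called in this comparison, Vwf (1.86), Abcb1a (0.98) and Slc2a1 (-0.97), and Vwf was called between 24 and 36 h (1.13), the first 3 with SE 12 h replicate 3 alone. From 6 to 12 h, 12 to 24 h and 24 to 36 h, edgeR called 0 members with 1.34%, 3.18% and 0.529% of all genes called (0.446%, 1.47% and 0.347% higher, 0.898%, 1.72% and 0.182% lower), while 2, 3 and 5 members had an unadjusted p under 0.05. DESeq2 called 0 in each of these steps, and limma-voom called 1 in the first (Vwf, which edgeR also called there without SE 6 h replicate 1 or Ctr 72 h replicate 2, at a log2FC of 1.64 and 1.13). Between control groups, edgeR called 0 members in all 3 pairs (0%, 1.97% and 0.931% of all genes), with 1, 2 and 2 members at an unadjusted p under 0.05, and DESeq2 and limma-voom also called 0.

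Over the 24 libraries, Flt1 and Abcb1a had a Pearson r of -0.79 on log2 CPM, Pecam1 and Abcb1a -0.74 and Pecam1 and Flt1 0.73. These values describe libraries that share the SE and control groups. Among 15778 genes, the course of Pecam1 was most like those of the endothelial receptor gene Cd93 (r = 0.97), the adenylyl cyclase gene Adcy4 (0.95) and the basement membrane gene Hspg2 (0.95). The course of Abcb1a was most like that of Slco1a4 (0.94), Atp2a3 (0.94) and Itm2a (0.93), of which Slco1a4 encodes an organic anion carrier of the barrier. For Vwf the most similar genes were Bgn (0.93), Stab1 (0.91) and Erap1 (0.90), and for Flt1 Gmeb1 (0.93), Thbd (0.89) and Phox2a (0.88). For Slc2a1 they were Slc3a2 (0.88), Pim3 and Depp1 (both 0.86). For Cldn5 they were Dnase2a, Irf8 and Cbs (0.88 to 0.89), for Tjp1 Fat1, Epb41l5 and Ston2 (0.83 to 0.86), for Ocln Ddo, Il17rd and Gm5089 (0.78 to 0.83), for Plvap Tnfsf12, Polr1has and Fam234a (0.75 to 0.83) and for Mfsd2a Fam107a, Peli2 and Aldh9a1 (0.71 to 0.75). Of these 30 partners 4 were in the vascular lists described next.

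Other junction genes mostly rose where they changed. Of 16 tested, 3 were higher and 1 lower at 12 h, 7 and 1 at 36 h, and 5 and 0 at 72 h, where over all genes 13.9%, 12.7% and 15.2% were higher and 11.4%, 8.91% and 4.21% lower. Their median log2FC was 0.35, 0.54 and 0.50. Cdh5, which encodes VE-cadherin of the adherens junctions, rose from 17.4 ± 3.78 CPM in Ctr 12 h to 46.4 ± 12.1 CPM in SE 12 h (log2FC 1.42, adjusted p = 2.0e-05), and F11r, which encodes the junctional adhesion molecule JAM-A, from 9.33 ± 2.46 CPM in Ctr 72 h to 30.3 ± 4.37 CPM in SE 72 h (1.65, adjusted p = 1.3e-05). Cgn, encoding the junction plaque protein cingulin, was lower at 12 and 36 h (log2FC -1.12 and -1.26), and Lsr, a gene of tricellular junctions, was higher at 36 h (1.20, adjusted p = 0.013). Over all alternatives, with omissions of 1 library among them, the number higher was 2 to 5, 0 to 8 and 2 to 6 at these times, with 0 at 36 h when libraries were thinned to the smallest.

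Other transporters and receptors of the barrier changed in both directions. Of 20 tested, 5 were higher and 4 lower at 6 h and 2 and 4 at 24 h, and 3 were higher and 5 lower at 12 h, 2 and 5 at 36 h, and 5 and 0 at 72 h, with a median log2FC of -0.31, 0.26 and 0.45 at the last 3 times. At 12, 24 and 36 h the share higher was 15%, 10% and 10%, near or below the 13.9%, 14.9% and 12.7% of all genes. The share lower was 25%, 20% and 25%, against 11.4%, 9.21% and 8.91%. At 6 h 15.8% of all genes were higher and 6.21% lower, and at 72 h 15.2% and 4.21%. Slco1a4 fell from 96.7 ± 8.97 CPM in Ctr 12 h to 26.9 ± 3.70 CPM in SE 12 h (log2FC -1.85, adjusted p = 0.00086), and at 72 h its log2FC was 0.44 (adjusted p = 0.41). Slc19a3, a thiamine carrier gene, fell from 5.39 ± 0.487 to 0.758 ± 0.186 CPM at 12 h (-2.79, adjusted p = 7.8e-05), and Slc22a8, an organic anion carrier gene, was lower at 12 and 36 h (-2.55 and -2.92). The genes higher at 12 h were Slc7a5 and Slc3a2, the chains of the large neutral amino acid carrier, and Slc16a1, a lactate carrier. Over the alternatives 1 to 4, 0 to 4 and 1 to 6 were higher and 3 to 5, 1 to 5 and 0 lower at 12, 36 and 72 h.

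Endothelial identity genes gave 10 higher and 3 lower of 21 at 12 h, 11 and 2 at 36 h, and 5 and 0 at 72 h, with a median log2FC of 0.65, 0.80 and 0.44. Over all genes 13.9%, 12.7% and 15.2% were higher and 11.4%, 8.91% and 4.21% lower at these times. Itm2a fell from 52.1 ± 5.73 to 14.9 ± 2.42 CPM at 12 h (log2FC -1.80, adjusted p = 4.9e-06), and Sox7, an endothelial transcription factor gene, was higher at 72 h (2.80, adjusted p = 0.00038). The number higher ranged over the alternatives from 4 to 12, 2 to 13 and 0 to 7, the lowest each with thinned libraries, and was 1 at 72 h with the label range as a factor.

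Genes of the Wnt and beta-catenin pathway of the barrier gave 1 higher and 4 lower of 17 at 12 h, 3 and 3 at 36 h, and 7 and 0 at 72 h, with a median log2FC of -0.04, -0.06 and 0.39. The shares over all genes were 13.9%, 12.7% and 15.2% higher and 11.4%, 8.91% and 4.21% lower. The ligand gene Wnt7a fell at 12 h (log2FC -1.31, adjusted p = 0.00036) and was higher at 24 h (0.72, adjusted p = 0.0046). The ligand gene Ndp rose from 9.90 ± 2.30 to 23.6 ± 3.37 CPM at 36 h (1.26, adjusted p = 0.0019), and the co-receptor gene Lrp5 (1.24, adjusted p = 0.00043) and the transcription factor gene Foxq1 (1.82, adjusted p = 0.028) were higher at 72 h. Across alternatives 0 to 4, 1 to 4 and 1 to 8 were higher and 1 to 4, 0 to 4 and 0 lower.

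The largest shares of higher genes were in the lists of endothelial activation, caveolae and tip cells, none of which had a gene called lower at 12, 36 or 72 h. Over all genes 13.9%, 12.7% and 15.2% were higher at these times. Of 14 genes of endothelial activation and haemostasis 11, 11 and 9 were higher at 12, 36 and 72 h, and their median log2FC was 2.07, 1.5 and 1.32. Icam1, a leukocyte adhesion gene, rose from 1.35 ± 0.804 to 16.5 ± 7.30 CPM at 12 h (log2FC 3.59, adjusted p = 1.2e-06), Procr, the protein C receptor gene, by 3.56 and Lcn2, which astrocytes also express, by 7.32 at 12 h. Of 9 caveola and transcytosis genes 6, 7 and 6 were higher, among them Cav1, which encodes the coat protein of caveolae, from 14.9 ± 1.77 to 66.5 ± 19.6 CPM at 36 h (log2FC 2.15, adjusted p = 3.2e-05), and the vesicle genes Ehd4 (2.34), Cavin3 (1.73) and Ehd2 (1.65). Of 16 tip cell and angiogenesis genes 10, 9 and 8 were higher, such as Igfbp3 (log2FC 3.12), Adm (3.08) and Notch4 (2.15) at 36 h. Over the alternatives the activation list gave 3 to 12, 4 to 11 and 3 to 9, lowest where at least 10 counts in every library were asked for. The caveola list gave 3 to 6, 5 to 7 and 1 to 7 and the tip cell list 5 to 11, 5 to 10 and 2 to 8. With the label range as a factor 1 caveola gene and 2 tip cell genes were higher at 72 h.

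Genes of the VEGF and angiopoietin systems, whose ligands act on Flt1, Kdr and Tek, gave 5 higher and 1 lower of 14 at 12 h, 6 and 1 at 36 h, and 3 and 0 at 72 h, with a median log2FC of 0.31, 0.91 and 0.37. The shares over all genes were 13.9%, 12.7% and 15.2% higher and 11.4%, 8.91% and 4.21% lower. Vegfa, the main ligand of Flt1, rose from 59.9 ± 6.19 to 267 ± 41.5 CPM at 36 h (log2FC 2.16, adjusted p = 3.4e-06) and was not called at 72 h (-0.58, adjusted p = 0.10). Angpt2, which destabilises vessels by blocking Tek, rose from 0.831 ± 0.218 to 14.1 ± 3.73 CPM at 12 h (4.22, adjusted p = 1.0e-06) and was still higher at 72 h (3.41). Vegfd was lower at 12 and 36 h (-2.34 and -2.42), and Angptl4 was higher at 12 h (2.12, adjusted p = 0.010). Alternatives gave 3 to 6, 2 to 8 and 0 to 4 higher and 0 to 3, 0 to 2 and 0 to 1 lower.

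**Figure D3:**
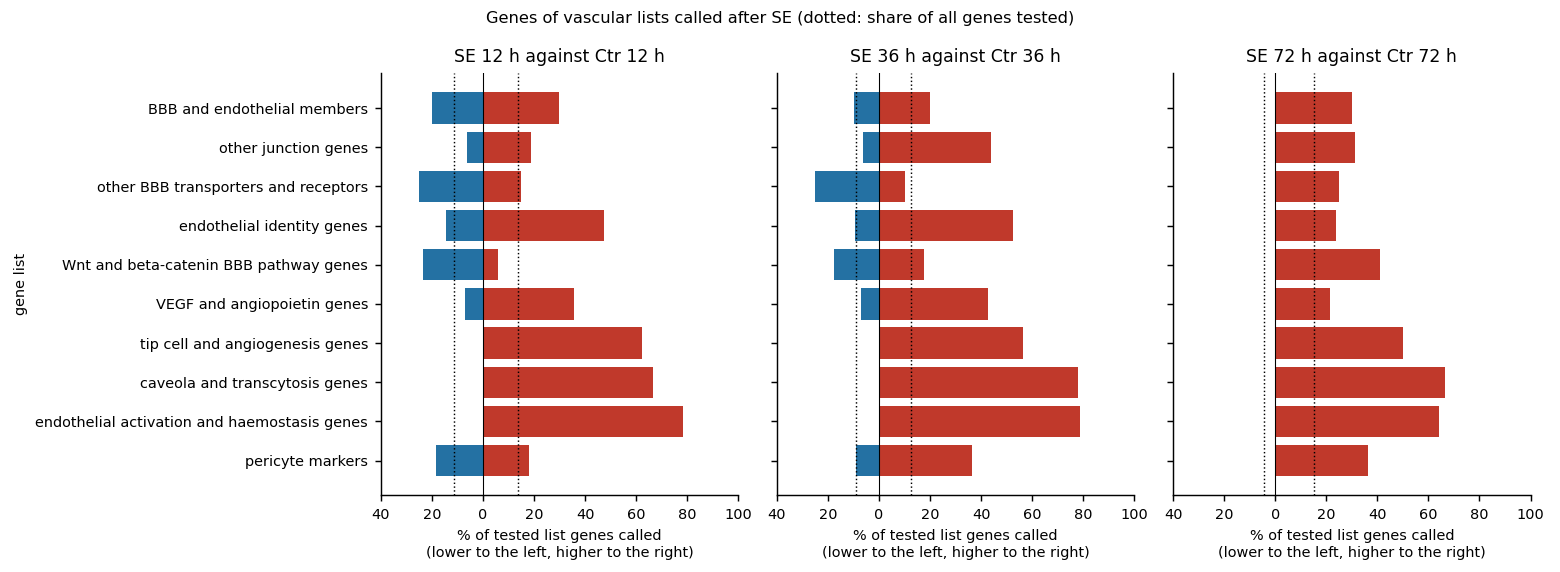
Share of the tested genes of each vascular list called higher (to the right, red) or lower (to the left, blue) after SE at 12, 36 and 72 h, in percent. Dotted lines mark the shares over all genes tested; the activation, caveola and tip cell lists hold genes called higher and none called lower, and at 72 h no vascular list holds a gene called lower.

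Some markers of the other cells of the vessel wall were called. Over all genes, 13.9%, 12.7% and 15.2% were higher and 11.4%, 8.91% and 4.21% lower at 12, 36 and 72 h. At 24 h the shares were 14.9% and 9.21%. At 12 h the pericyte counts stood near these shares, and at 72 h the fibroblast and smooth muscle counts lay below them for higher genes. At 36 h the fibroblast and pericyte counts of higher genes lay above the share. Of 11 pericyte markers 2 were higher and 2 lower at 12 h, 4 and 1 at 36 h, and 4 and 0 at 72 h (higher in alternatives: 0 to 3, 2 to 4 and 1 to 4), and their summed level was 266 to 389 CPM in controls and 460 to 521 CPM in SE 72 h. Atp13a5, a pericyte gene, was lower at 36 h (log2FC -1.93, adjusted p = 0.00012), Abcc9 higher at 36 h (1.20) and Cspg4 and Notch3 higher at 72 h (1.18 and 1.17). Of 12 meningeal and perivascular fibroblast markers 1 was higher at 12 h, 5 at 36 h and 1 at 72 h (higher in alternatives: 0 to 2, 2 to 7 and 1 to 4). Their summed level was 172 to 517 CPM in controls and 524 to 730 CPM in SE 72 h. At 36 h it was 193 to 260 CPM in Ctr and 325 to 396 CPM in SE. At 72 h the gene called was Igfbp2, with 345 ± 34.0 CPM against 18.8 ± 3.11 CPM in Ctr 72 h (log2FC 4.19). The rise of the sum at 72 h lay in Igfbp2, and the sum does not show a rise of the other markers. Of 5 tested smooth muscle markers 2, 1 and 0 were higher, and of 5 tested choroid plexus markers 1 was higher and 1 lower at 12 h and 0 at 36 and 72 h, with a summed level of 9.37 to 94.1 CPM. Of 8 astrocyte markers 2 were higher and 5 lower at 24 h (median log2FC -0.92) and 2 and 1 at 12 h. At 36 h 3 were higher and 4 lower (median -0.70), and at 72 h 3 and 0 (median 0.47). The sum of these markers was 12756 to 14317 CPM in SE 72 h against 4714 to 5629 CPM in Ctr 72 h. The genes called at 72 h were Gfap, Aqp4 and Aldh1l1. A sum weighs abundant genes most, and this one does not show a rise of the other astrocyte markers. The part of these cells in the levels of Tjp1 and Slc2a1, which astrocytes express, was not tested.

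**Figure D4:**
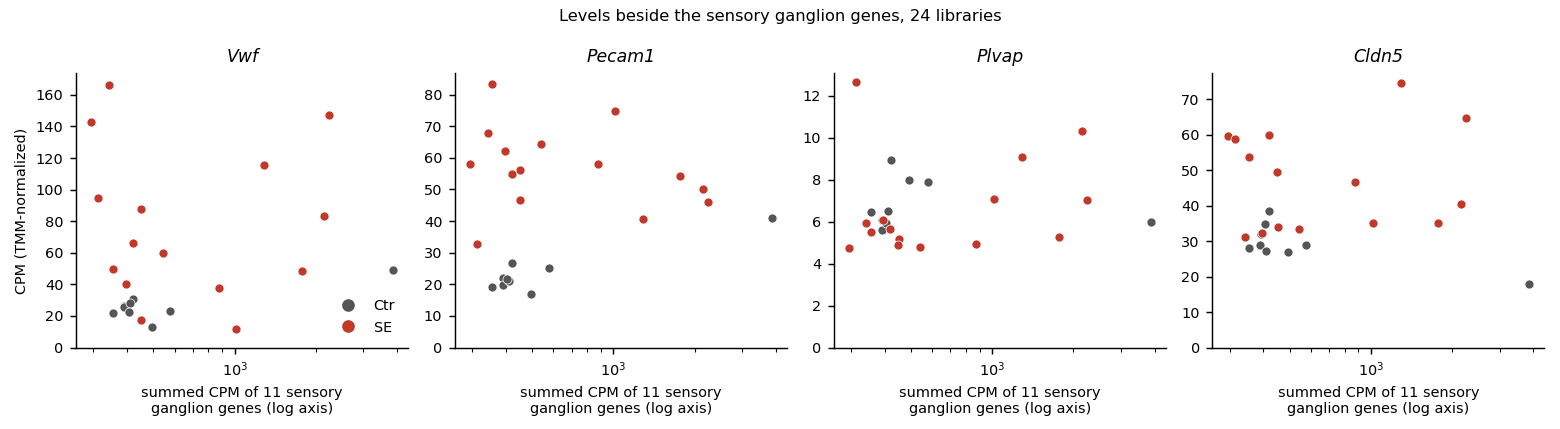
Level of Vwf, Pecam1, Plvap and Cldn5 in CPM (linear axis from 0) against the summed CPM of 11 sensory ganglion genes (log axis) in the 24 libraries, grey for Ctr and red for SE. The control library furthest to the right, Ctr 72 h replicate 2 at 3863 CPM, is the highest control for Vwf (49.3 CPM) and Pecam1 (41.1 CPM) and the lowest for Cldn5 (17.9 CPM).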

How the data were processed

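CA1 RNA of 24 mouse libraries (8 groups of 3) was sequenced after poly(A) selection. The authors trimmed reads with Trim Galore 0.6.6, aligned them with STAR 2.7.8a to GRCm39 and deposited raw read counts per gene from HTSeq 0.13.5, counted without strand, with SAMtools 1.10 also in the submitters' processing notes. Here the deposited counts were filtered by expression over the groups, TMM-normalized and fitted in 1 model of all libraries with 1 RUVr factor (edgeR 4.0.16, R 4.3.3), and p-values of the quasi-likelihood test were adjusted with the Benjamini-Hochberg method over all genes tested. DESeq2 1.42.0, limma 3.58.1 (voom), other scalings, filters and models, thinning and the omission of each library were alternatives. A log2FC of at least 0.66 (1 between SE time points) and an adjusted p of at most 0.05 made a call. Correlations used log2 CPM with a prior count of 2. Genes named per vascular list were up to 4 with the largest change among those called at 12, 36 or 72 h whose log2 CPM averaged 0 or more. Other genes were named after their values were seen. A gene that the rule names is not reported here. For likeness, 3 partners per member were named. The scripts were tested on simulated data. The members and lists were chosen with earlier results of these data known. The comparisons between non-adjacent SE time points and the omission of the 7 libraries were added after seeing the data. GENCODE M39 gave positions and symbols, and 18552 of 18647 identifiers matched.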

Additional observations from a re-analysis of the deposited data

Results flagged for a closer look

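The effect of SE differed between times, by the interaction term of edgeR's quasi-likelihood test, in 6 cases among the members. Of all genes tested, 4.81% differed between 36 and 72 h and 18.6% between 12 and 72 h. For Tjp1, the ZO-1 scaffold gene, the log2FC after SE was greater at 72 h than at 36 h by 0.80 (adjusted p = 0.0141) and greater at 72 h than at 12 h by 0.77 (adjusted p = 0.00457). For Pecam1, the endothelial adhesion gene, the difference was -1.10 between 72 and 36 h (adjusted p = 0.0267) and -1.03 between 72 and 12 h (adjusted p = 0.0124). For Abcb1a, the efflux pump gene, the log2FC was greater at 72 h than at 12 h by 1.76 (adjusted p = 0.00118), and for Ocln, the occludin gene, by 1.40 (adjusted p = 0.0349). At 72 h the SE and control libraries carry label numbers from different ranges, so that this part of each difference cannot be told apart from the range. The differences for Tjp1, Pecam1 and Ocln were lost with thinned libraries. Omission of 1 library also ended that for Ocln, both for Pecam1 and, for Tjp1, that between 72 and 12 h.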

How the results depend on the processing

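Of 4420 log2FC values of members under an alternative, 0 reversed a call, 74 lost one, 101 gained one and 4245 kept their side of the threshold, and 151 values that were not called changed sign. With no log2FC threshold, 5 members were called at 36 h against 3, 2 between 12 and 24 h against 0, and 3 between 36 and 72 h against 1. A different effect at 72 than at 36 h was called for 1 member with no RUVr factor, with limma-voom and with the label range as a factor, and for 0 with thinned libraries, against 2. A different effect at 36 than at 12 h was called for 1 member by DESeq2, with at least 10 counts in every library and in the compared groups only, and for 3 without the 7 libraries, which leaves SE 12 h and SE 72 h with 1 library each, against 0. A different effect at 72 than at 12 h was called for 2 with the label range and 1 with thinning, against 4. Between 6 and 12 h, 1 was called with limma-voom and with the label range, against 0. Between 36 and 72 h, 0 were called with thinning, and between 24 and 36 h, 1 without the 7 libraries. Thinning leaves fewer counts.

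Leaving out 1 library gave 3 to 5 members at 12 h, at 36 h and at 72 h, 0 to 1 between 6 and 12 h, 0 to 2 between 36 and 72 h, 0 to 1 between Ctr 36 and 72 h, 0 to 1 for a different effect at 36 than at 12 h, and 1 to 3 at 72 than at 36 h. With the replicate number as a block, 1 member was called between 6 and 12 h and 1 for a different effect at 36 than at 12 h. Same-numbered SE and Ctr libraries had correlations of their deviations of -0.201 to 0.181, and differently numbered ones -0.299 to 0.252. With 3 libraries per group, these values cannot show whether same-numbered libraries were paired. Where not stated otherwise, the cause of these changes was not tested. Calls of Ocln, Abcb1a, Cldn5, Vwf, Tjp1 and Pecam1 were lost with thinned libraries.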
